A study of Mus musculus with 24 samples.

Results

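Peaks whose summit lay inside the protein-coding part of an exon, away from any start of transcription, were examined in the ChIP-seq lists of 3 transcriptional regulators (TRs) from the developing mouse cortex. A peak was taken when its summit, the base of highest enrichment, fell in a coding sequence (CDS) of GENCODE vM21 on chromosomes 1 to 19 and more than 5000 bp from every annotated transcription start site (TSS). This gave 1709 coding summits among 311477 peaks on those chromosomes. The 6 lists held 315145 peaks in all. Of the 152377 summits farther than 5000 bp from a TSS, 75687 lay in introns and 71749 lay between genes. Overlapping peaks with coding summits merged into 876 coding loci.

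Chromatin for ChIP came from the cortex of wild-type CD1 mouse embryos at 2 stages, E15.5 and E18.5 (days of embryonic development), with an antibody against ARID1B, FOXP1, or the target that the labels call TCF4. The study's antibody for the last was raised against TCF7L2, whose older name is TCF4, and TCF7L2 is used here. For every TR and stage, 2 ChIP libraries were matched by 2 of input, which makes 24, and no group carried a treatment or an altered allele. The authors called peaks on merged replicates, so there was 1 list for each TR and stage, differences between lists could not be set against the spread between replicates, and no test was made.

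ARID1B is a DNA-binding subunit of the BAF complex, which moves nucleosomes, and is found at enhancers and promoters. FOXP1 is a forkhead transcription factor of cortical projection neurons, and TCF7L2 is an HMG-box factor that carries Wnt signals to chromatin. Most distal binding in cortex is mapped in introns and between genes. Coding exons also hold regulatory sequence in some genes, and they differ from introns in base composition, since codons are rich in G and C and long exons can hold CpG islands.

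The depth behind each list was recovered from the tie between its fold enrichments and p-values, which a single background level per list gave to within 0.01 in −log10 p. Whichever of the merged ChIP or input data was smaller held 80.7 M (ARID1B), 64.5 M (FOXP1) and 60.1 M reads (TCF7L2) at E15.5, and to 57.3 M, 26.3 M and 76.1 M at E18.5. FOXP1 at E18.5 was thus the shallowest list, with a background of 2.81 reads over a point, and its lowest fold enrichment was 3.21 against 2.33 to 2.66 in the other 5 lists. Fold enrichment is the number of reads over the summit divided by the background, with 1 added to both.

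The sequences below show the 3 kinds of coding exon that the results turn on, each read from the plus strand of GRCm38. The first kind was rich in CpG dinucleotides, which are in capitals in the 151 bases centered on the highest summit. Zfp771 encodes a zinc finger protein, Maff a small MAF factor, Tbr1 the T-box factor of deep-layer neurons, and Scn8a a voltage-gated sodium channel.
Zfp771, chr7:127254211-127254361: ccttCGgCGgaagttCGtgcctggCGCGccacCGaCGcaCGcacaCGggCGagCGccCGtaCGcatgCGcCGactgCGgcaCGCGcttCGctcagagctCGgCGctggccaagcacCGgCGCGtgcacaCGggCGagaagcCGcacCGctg
Maff, chr15:79357505-79357655: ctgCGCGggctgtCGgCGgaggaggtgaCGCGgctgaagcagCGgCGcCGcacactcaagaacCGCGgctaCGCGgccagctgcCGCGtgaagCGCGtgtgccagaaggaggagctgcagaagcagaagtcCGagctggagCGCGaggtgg
Tbr1, chr2:61812161-61812311: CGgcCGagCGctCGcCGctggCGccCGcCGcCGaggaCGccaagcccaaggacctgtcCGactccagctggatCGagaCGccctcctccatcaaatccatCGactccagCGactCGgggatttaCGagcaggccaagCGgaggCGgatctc
Scn8a, chr15:100983873-100984023: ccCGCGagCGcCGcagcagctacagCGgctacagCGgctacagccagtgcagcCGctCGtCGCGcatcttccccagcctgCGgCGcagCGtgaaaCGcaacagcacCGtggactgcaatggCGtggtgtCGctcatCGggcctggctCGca

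The second kind held few CpG dinucleotides, and 3 of the 4 exons shown gave higher fold enrichment for ARID1B than for FOXP1 and TCF7L2 at both stages with a coding summit in every list. Capitals mark the E-box letters CATCTG, on either strand, in the 151 bases around the highest summit. Cdkn3 encodes a phosphatase of cyclin-dependent kinases, Grip1 a scaffold that binds AMPA receptors, Lonp2 a protease of peroxisomes, and Sox5 a transcription factor of deep-layer neurons.
Cdkn3, chr14:46767194-46767344: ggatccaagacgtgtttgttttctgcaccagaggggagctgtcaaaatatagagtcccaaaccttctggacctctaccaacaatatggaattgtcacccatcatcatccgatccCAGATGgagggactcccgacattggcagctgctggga
Grip1, chr10:120038342-120038492: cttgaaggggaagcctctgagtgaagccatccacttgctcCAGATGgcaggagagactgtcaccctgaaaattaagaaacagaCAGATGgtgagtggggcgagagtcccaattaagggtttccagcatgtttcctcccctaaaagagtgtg
Lonp2, chr8:86713884-86714034: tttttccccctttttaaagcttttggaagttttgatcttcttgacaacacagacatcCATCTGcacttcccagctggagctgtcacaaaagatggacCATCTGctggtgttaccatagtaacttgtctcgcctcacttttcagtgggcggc
Sox5, chr6:144155099-144155249: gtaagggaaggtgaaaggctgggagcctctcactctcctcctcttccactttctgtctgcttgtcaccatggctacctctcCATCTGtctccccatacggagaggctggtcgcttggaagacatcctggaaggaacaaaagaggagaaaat

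The third kind was found in runs along 1 gene, with peaks that followed the outline of the exons. Here the exon is in capitals, with 40 bases on each side in lower case. Foxp2 encodes a forkhead factor of deep-layer neurons closely related to FOXP1, and Cux1 and Cux2 encode homeobox factors of upper-layer neurons.
Foxp2, chr6:15394600-15394893: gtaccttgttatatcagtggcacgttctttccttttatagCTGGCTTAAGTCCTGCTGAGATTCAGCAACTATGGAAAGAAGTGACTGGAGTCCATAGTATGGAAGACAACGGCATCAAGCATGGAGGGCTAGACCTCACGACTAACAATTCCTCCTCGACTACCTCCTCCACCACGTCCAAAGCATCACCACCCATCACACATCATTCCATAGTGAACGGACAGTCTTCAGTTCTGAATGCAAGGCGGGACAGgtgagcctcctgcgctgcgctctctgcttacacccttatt
Cux1, chr5:136254027-136254223: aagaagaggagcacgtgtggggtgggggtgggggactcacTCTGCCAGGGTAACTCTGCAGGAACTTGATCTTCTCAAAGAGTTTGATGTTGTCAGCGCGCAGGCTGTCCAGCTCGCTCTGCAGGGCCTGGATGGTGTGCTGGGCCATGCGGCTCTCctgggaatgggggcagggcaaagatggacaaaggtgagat
Cux2, chr5:121885798-121885998: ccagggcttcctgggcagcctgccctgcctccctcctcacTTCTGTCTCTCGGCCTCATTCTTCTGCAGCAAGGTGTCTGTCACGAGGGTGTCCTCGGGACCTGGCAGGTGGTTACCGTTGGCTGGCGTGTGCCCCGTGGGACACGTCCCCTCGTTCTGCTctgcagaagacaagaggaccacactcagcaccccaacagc

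Coding exons took the largest part of distant TCF7L2 summits and the smallest part of distant ARID1B summits. At E15.5, TCF7L2 had 193 coding summits, 1.80% of its 10711 summits over 5000 bp from a TSS (95% Wilson interval 1.57 to 2.07). FOXP1 had 364 of 33403, or 1.09% (0.984 to 1.21). ARID1B had 350 of 40580, or 0.862% (0.777 to 0.957). At E18.5 the shares were 1.79% for TCF7L2 (1.62 to 1.97, 393 of 21968 summits), 1.53% for FOXP1 (1.28 to 1.83, 117 of 7660) and 0.767% for ARID1B (0.684 to 0.860, 292 of 38055). The intervals cover counting error only and leave out the spread between animals and antibodies.

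CDS made up 0.740% of the bases farther than 5000 bp from a TSS. Coding summits therefore stood at 2.44 and 2.42 times their share of bases for TCF7L2 (E15.5, then E18.5), at 1.47 and 2.07 times for FOXP1, and at 1.17 and 1.04 times for ARID1B. The interval of ARID1B at E18.5 took in the share of bases. The bases counted include repeats, and no allowance was made for those where reads could not be placed. Introns held 42.2% to 50.7% of distant summits against 40.4% of bases, and the space between genes 45.2% to 54.0% against 57.4%. TCF7L2 kept a higher coding share than ARID1B under each alternative setting, whereas FOXP1 at E18.5 came first when only peaks with −log10 p of at least 15 were kept (2.72%, or 1.86% with the 4 genes of exon-outlined runs described below left out). Most coding summits lay nearer to a TSS. Those within 5000 bp numbered 1493 to 3102 per list.

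**Figure D1:**
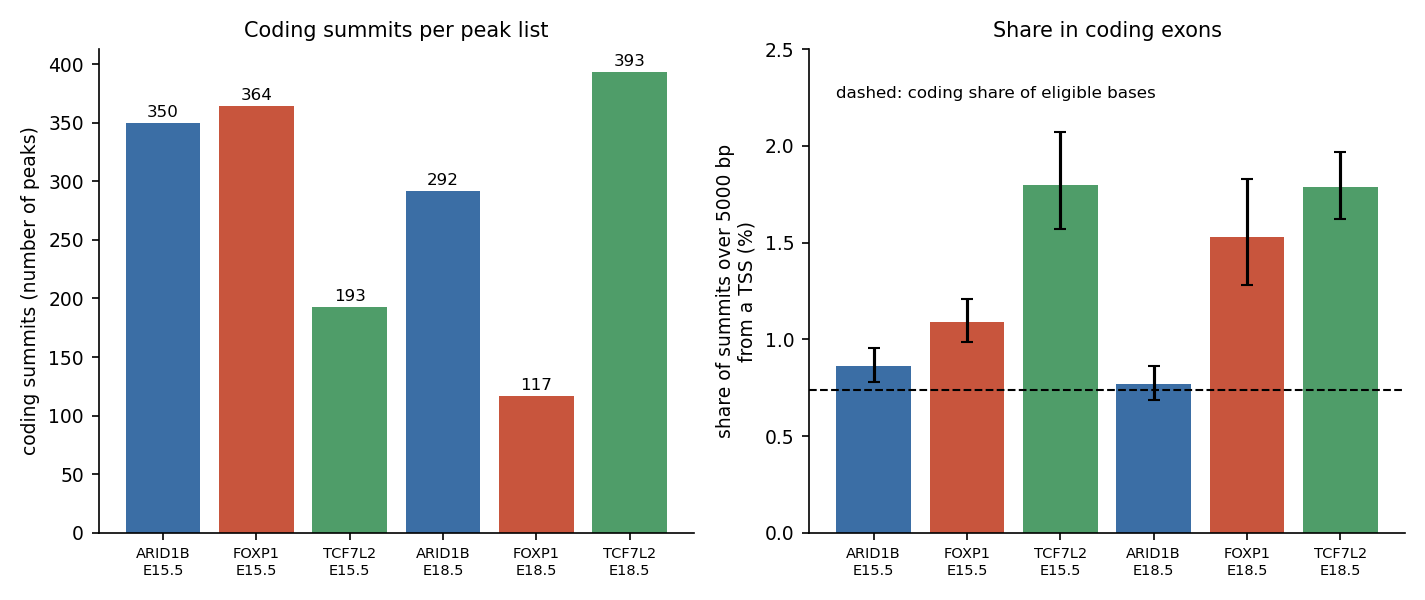
The left panel plots the number of coding summits over 5000 bp from a TSS for each TR and stage, and the right panel plots their percentage of all summits over 5000 bp from a TSS, with 95% Wilson intervals as bars and the coding share of bases (0.740%) as a dashed line. The TCF7L2 lists lie highest in share, at 1.80% and 1.79%, and the ARID1B lists lie nearest the line.

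In height, coding summits resembled intronic summits of the same list. Median fold enrichment was 3.48 and 4.07 for ARID1B at E15.5 and E18.5, against 3.66 and 4.07 in introns. It was 3.80 and 4.97 for FOXP1, against 3.80 and 4.68, and 3.68 and 3.39 for TCF7L2, against 3.79 and 3.28. The highest coding summit of a list reached 14.6 (TCF7L2, E15.5) to 32.3 (FOXP1, E18.5). Median widths were 372 to 408 bp, against 302 to 425 bp in introns. On either side of the distance limit, the 262 coding summits between 5000 and 6000 bp from a TSS had a median fold enrichment of 3.63 and a median width of 413 bp, and the 296 between 4000 and 5000 bp had 3.48 and 377 bp.

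Composition set coding summits apart from intronic ones in every list. Median G+C in the 200 bases around a coding summit ran from 54.5% (ARID1B, both stages) to 63.5% (TCF7L2, E15.5), against 46.5% to 51.5% at intronic summits. The centers of 12419 coding exons of at least 200 bp that were open to the same rule had a median of 52.5%. The ratio of observed to expected CpG had medians of 0.452 to 0.677 at coding summits, 0.230 to 0.263 at intronic summits, and 0.381 at exon centers. A window was called CpG-rich when G+C exceeded 50% and this ratio exceeded 0.6. CpG-rich windows made up 53.4% and 37.2% of coding summits for TCF7L2 at E15.5 and E18.5, 37.4% and 53.0% for FOXP1, and 30.6% and 29.8% for ARID1B. They made up 11.9% of exon centers and 1.66% to 4.65% of intronic summits. Part of the difference from introns was thus found in coding exons at large, and coding summits lay above the exon centers in each list.

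**Figure D2:**
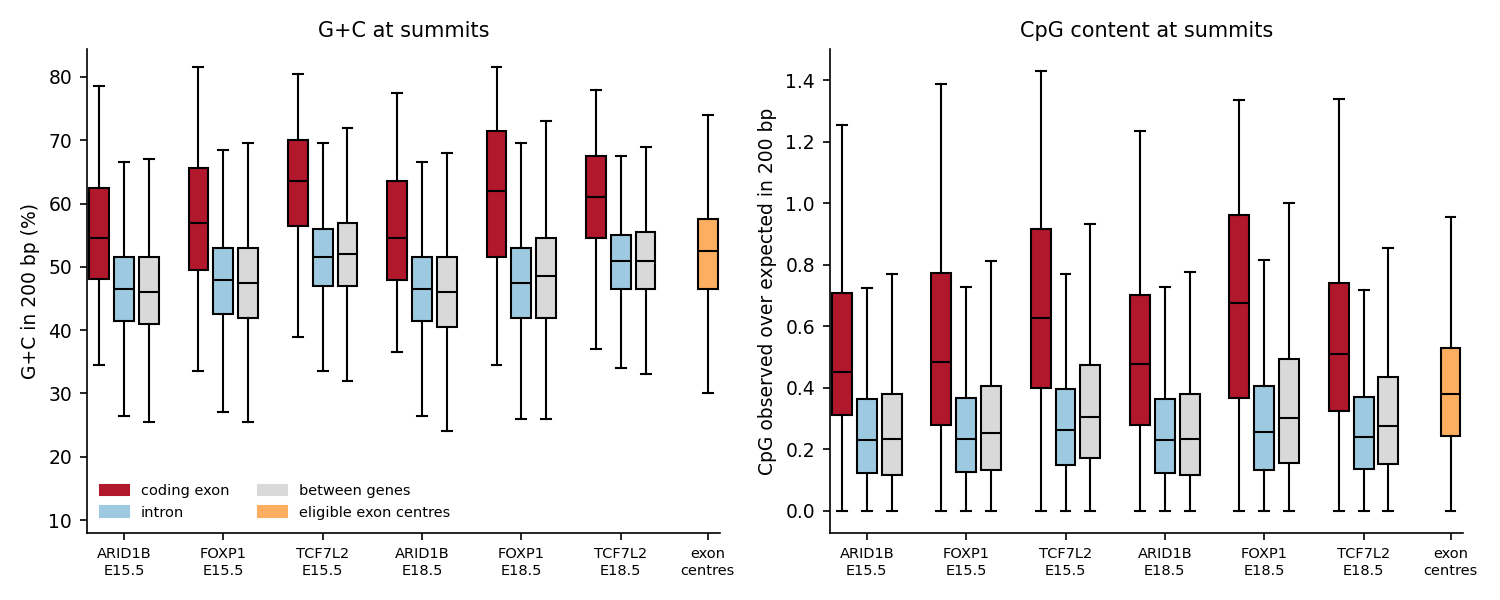
Box plots of G+C in percent (left) and of the ratio of observed to expected CpG (right) in the 200 bases around summits in coding exons, in introns and between genes, for each list, beside the centers of eligible coding exons, with boxes at the quartiles, lines at the medians and whiskers to the farthest values within 1.5 times the box. Coding summits have higher medians than intronic summits of their own list in both panels, with median G+C from 54.5% to 63.5%.

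Last coding exons held more summits, and internal exons fewer, than their length would give. Of 1629 coding summits in the reference transcript of their gene, 32.1% (29.9 to 34.4) fell in the last coding exon, which held 18.6% of eligible coding bases. Internal exons held 61.4% (59.1 to 63.8) against 76.3% of bases, first coding exons 3.99% against 2.57%, and genes with a sole coding exon 2.46% against 2.61%. These shares pool the lists, and a place with summits in several lists was counted once for each. The pooled intervals are therefore too narrow, and such places weigh more in the shares. The share in last exons was 39.8% and 34.0% for TCF7L2 at E15.5 and E18.5, 31.5% and 38.2% for FOXP1, and 28.3% and 27.4% for ARID1B. Summits were more frequent than bases in exons of 500 to under 1000 bp (15.7% against 9.15%), and less frequent in exons of 100 to under 200 bp (34.9% against 43.9%). The median exon with a summit was 241 bp long, and 370 bp for TCF7L2 at E15.5, where the median eligible base lay in an exon of 180 bp.

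Few peaks were confined to coding bases. In 1366 of 1709 (79.9%) the peak reached past the CDS into intron or untranslated sequence, and a median of 56.7% of the peak's bases were coding. The summit lay a median of 63 bp from the nearest edge of its exon. The median distance to a TSS was 10972 bp, and 764 summits (44.7%) lay within 10000 bp. In the RefSeq annotation, which holds other transcripts, 206 of the 1709 summits (12.1%) were within 5000 bp of a TSS and 39 were within 500 bp.

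**Figure D3:**
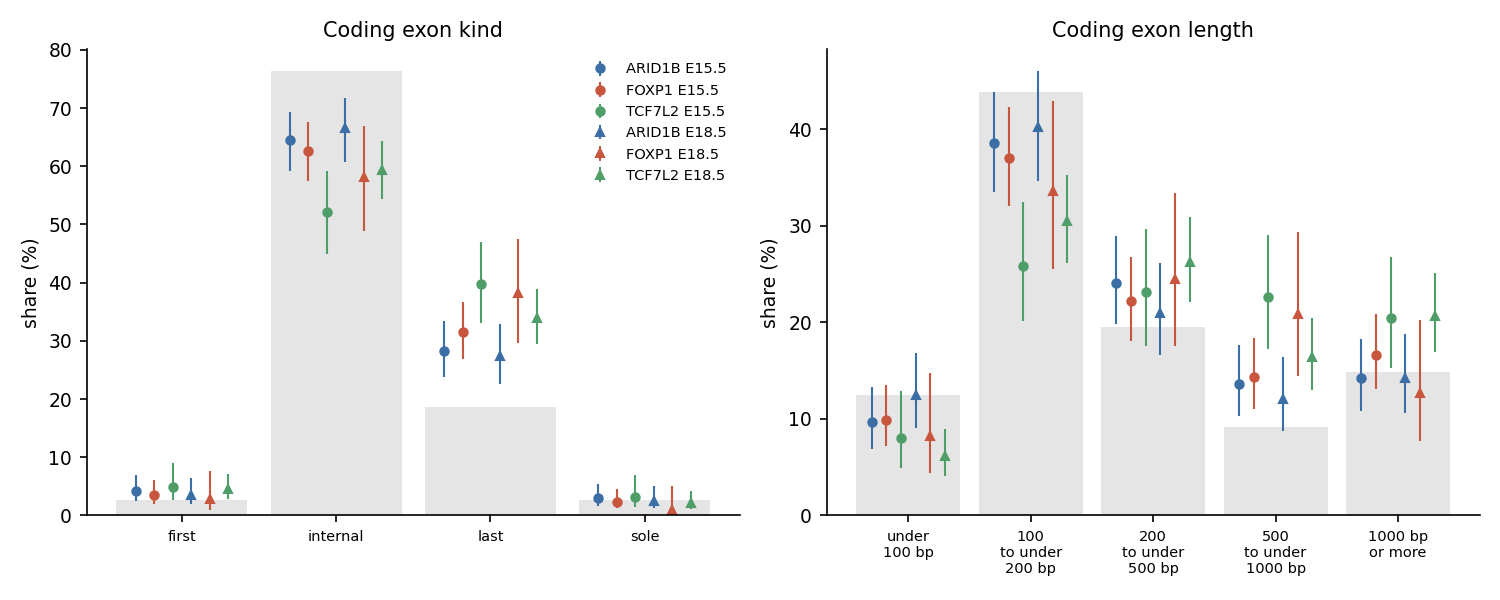
The plot gives the percentage of coding summits of each list by kind of coding exon (left) and by exon length in bp (right), as circles for E15.5 and triangles for E18.5 with 95% Wilson intervals, over grey bars for the share of eligible coding bases. Last exons lie above their bar in every list, from 27.4% to 39.8% against 18.6%, and internal exons lie below it.

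Coding loci were mostly seen in 1 list. Of 876 loci, 520 (59.4%) had a coding summit in 1 list, 156 in 2, 80 in 3, 43 in 4, 38 in 5 and 39 (4.45%) in all 6. Any peak of a list, wherever its summit, was overlapped by 271 loci in 1 list and by 106 in all 6. Loci seen in more lists were richer in CpG. The CpG-rich share was 13.7% at loci of 1 list, 26.7% at loci of 2 or 3, 54.3% at loci of 4 or 5, and 74.4% at loci of 6, and median G+C went from 55% at loci of 1 list to 70% at loci of 6. The highest fold enrichment of a locus over its lists had medians of 3.28, 4.05, 5.19 and 6.20 in the same order. A maximum over more lists is higher by construction, and nothing is read from that order. The share with the E-box letters stayed between 25% and 29.6%.

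Within a stage, TRs met at a coding locus about as often as at an intronic one when only summits were counted, and more often when any peak was counted. At E15.5, 83 of 599 coding loci (13.9%, 11.3 to 16.9) had coding summits of all 3 TRs, against 16.4% of intronic and 18.2% of intergenic loci with summits of their kind. Any peak of all 3 TRs was found at 172 of them (28.7%, 25.2 to 32.5), against 17.1% of intronic loci. At E18.5, 52 of 597 coding loci had coding summits of all 3 (8.71%, 6.70 to 11.2), against 8.33% and 11.6%, and 114 had any peak of all 3 (19.1%, 16.1 to 22.4), against 8.80% and 11.8%. The first count needs the summits of all 3 TRs in coding bases, and the second also takes a peak whose summit lies in the neighboring intron.

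Among the loci with summits of all 3 TRs, those where ARID1B was highest differed in sequence from those where FOXP1 was. Of the 83 loci at E15.5, ARID1B gave the highest fold enrichment at 17, FOXP1 at 57 and TCF7L2 at 9. The window of a locus was centered on its highest coding summit over all 6 lists. Windows were thus placed by the same fold enrichments that formed the groups, and the part of this in the contrast was not tested. CpG-rich windows were found at 2 of the 17 ARID1B loci (11.8%) and at 48 of the 57 FOXP1 loci (84.2%). The E-box letters were found at 10 of the 17 (58.8%) and at 11 of the 57 (19.3%). The ARID1B loci were internal exons in 11 cases, with a median exon of 209 bp. The FOXP1 loci were last or sole exons in 39 cases, with a median exon of 747 bp. At E18.5 the 14 ARID1B loci held 4 CpG-rich windows and 9 with the E-box letters, and the 25 FOXP1 loci held 21 and 6. Many loci are shared by the stages, so the E18.5 counts are not a separate set of places. Fold enrichments of different antibodies carry different depth and efficiency, and the order of TRs at a locus rests on that scale.

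Zfp771 held the highest of the 39 loci seen in every list, when loci were ranked by their lowest value. At its second and last coding exon (810 bp, chromosome 7), fold enrichment at E15.5 was 10.4 for ARID1B, 20.9 for FOXP1 and 14.6 for TCF7L2, and at E18.5 it was 10.9, 15.3 and 16.6. FOXP1 was highest at the earlier stage and TCF7L2 at the later one. The window printed above held 28 CpG dinucleotides in 151 bases.

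Cdkn3, in coding exon 5 of 8 (223 bp, chromosome 14), was highest for ARID1B. There ARID1B reached 20.5 at E15.5 and 21.7 at E18.5, its highest coding summits at both stages, whereas FOXP1 had 12.5 and 7.47 and TCF7L2 7.55 and 7.77. Its summits in the 6 lists lay within 43 bp of each other, and its CpG ratio was 0.314.

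Grip1, in exon 18 of 25 and 45311 bp from a TSS, had 16.3 and 17.7 for ARID1B, 11.3 and 6.0 for FOXP1, and 6.61 and 7.12 for TCF7L2 at E15.5 and E18.5. Lonp2, in exon 14 of 15, had 14.8 and 14.4, then 10.9 and 6.59, then 6.50 and 6.57 in the same order. Trak1, in exon 8 of 16 and encoding an adaptor that couples mitochondria to motor proteins, had 8.37 and 10.4, 8.10 and 5.12, and 4.52 and 4.49. In these genes both ARID1B values stood above all 4 values of the other TRs.

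Nrg2, the gene of the ERBB ligand neuregulin 2, had its locus in coding exon 10 of 10 (766 bp, chromosome 18). ARID1B was lowest there, at 6.95 and 7.01, FOXP1 had 14.3 and 9.68, and TCF7L2 had 7.13 and 9.52. Pomc, which encodes the precursor of ACTH and other peptide hormones, had 4.64 and 5.33 for ARID1B, 9.87 and 10.3 for FOXP1, and 7.13 and 6.02 for TCF7L2. Its summit was 5023 bp from a TSS, close to the limit. Maff had 4.99 and 5.75, 7.72 and 5.71, and 5.77 and 7.44 in the same order, and lay 4665 bp from a RefSeq TSS, inside the limit in that annotation. A830031A19Rik had 6.06 and 4.91, 10.6 and 7.18, and 5.88 and 7.33. Ccdc92b, named for a coiled-coil domain, varied least, between 4.81 and 5.36 over the 6 lists.

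Over all 39 loci, ARID1B gave the highest value at both stages in 7 (Cdkn3, Chia1, Grip1, Lonp2, Nhsl1, Thsd7a and Trak1), at 1 stage in 4, and at neither in 28. The 7 held 1 CpG-rich window, with CpG ratios from 0.159 to 0.607, and 6 were in internal exons. The 28 held 26 CpG-rich windows, and 20 were in last or sole exons. Summits of the 6 lists lay closer together in the first group, with a median spread of 66 bp against 277 bp. A coding summit must lie in coding bases, so a short exon limits the spread by construction. In the first group Nhsl1, in an exon of 3252 bp, had a spread of 617 bp. Nothing is read from the difference in spread. These groups were formed from the measured order and are described only.

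**Figure D4:**
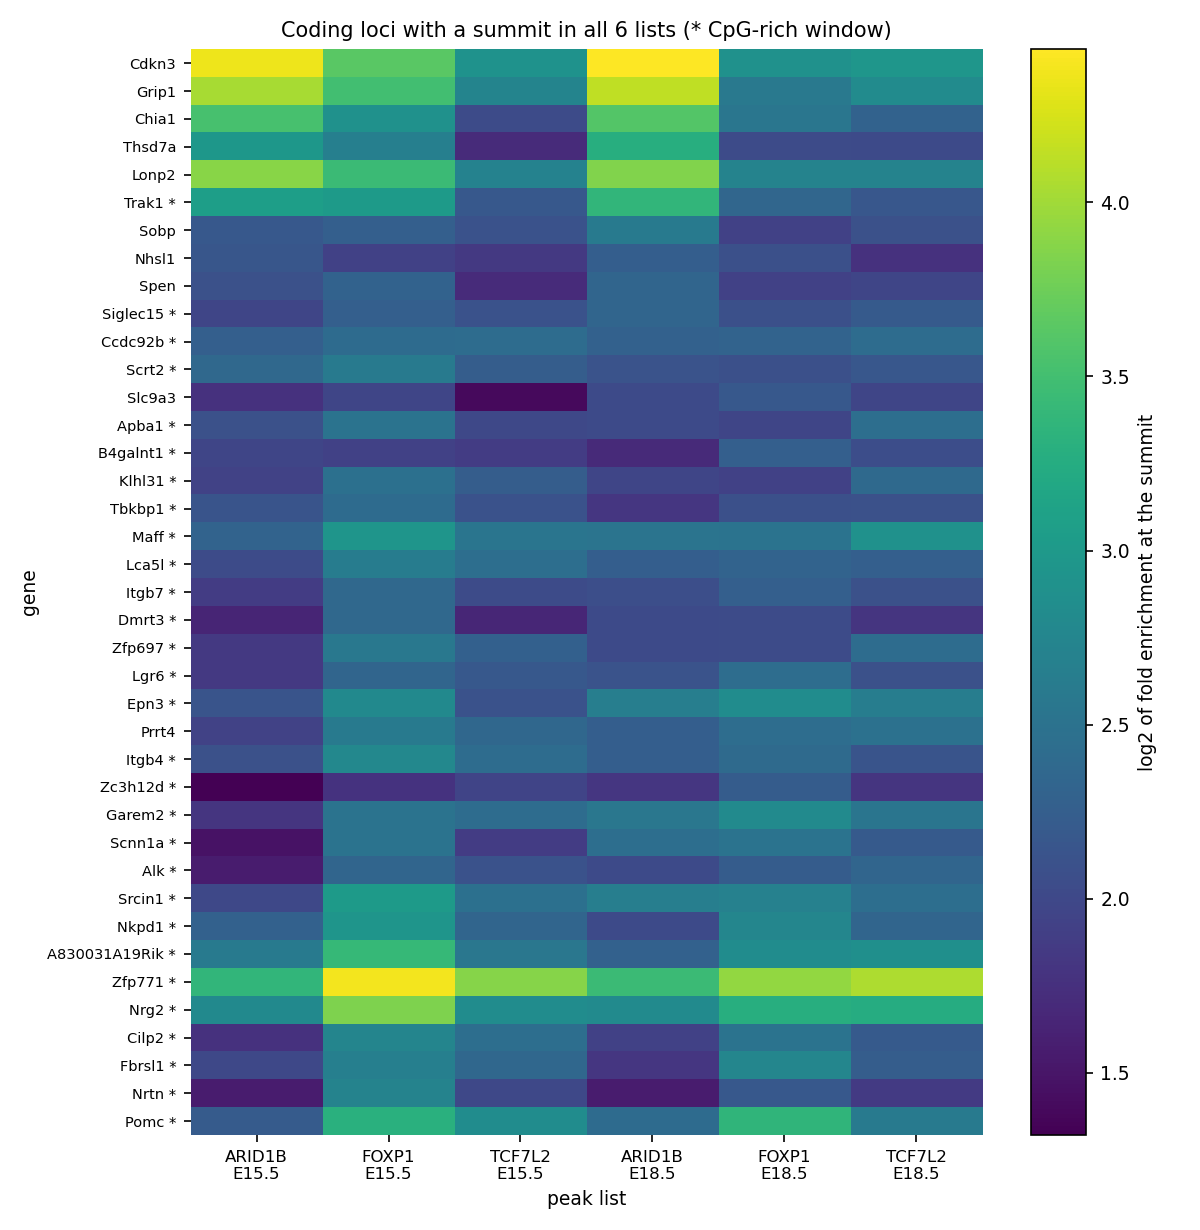
Each line of the map is 1 of the 39 coding loci with a summit in all 6 lists, named by gene with an asterisk for a CpG-rich window, each column is a list, and color gives log2 of fold enrichment at the summit. The Cdkn3, Grip1 and Lonp2 loci are highest in both ARID1B columns, and the Zfp771 locus is high in all 6, from 10.4 to 20.9 in fold enrichment.

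Some tall coding summits were missing from 1 or more lists. Mark1, which encodes a kinase of microtubule-associated proteins, had 14.6 for ARID1B at E18.5 in exon 16 of 18, and 4.41 and 4.38 for TCF7L2 at the earlier and the later stage. The other 3 lists had a peak there with its summit outside the coding bases, at 11.9 for ARID1B and 8.48 for FOXP1 at E15.5 and 4.24 for FOXP1 at E18.5. Trim14, of the tripartite motif family, had 10.1 for TCF7L2 and 10.7 for FOXP1 at E18.5 in its last exon, and 6.95, 10.6 and 8.17 for ARID1B, FOXP1 and TCF7L2 at E15.5. ARID1B at E18.5 had a peak of 6.45 there without a coding summit. Esr1, the gene of estrogen receptor alpha, had a coding summit of 8.49 for TCF7L2 at E15.5, and the TCF7L2 peak that overlapped it at E18.5 reached 8.76 with its summit outside the coding bases.

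In the genes of the TRs under study, Tbr1 stood out. Its last coding exon (exon 6 of 6, 853 bp, chromosome 2) had 21.5 for FOXP1 at E15.5, the highest coding summit of that list, within a peak of 2791 bp. TCF7L2 had 9.95 at E15.5 and 11.3 at E18.5, whereas ARID1B had 3.75 at E15.5 and 4.21 and 3.37 in a pair of peaks at E18.5. FOXP1 at E18.5 had no peak at the locus. Bcl11a, which encodes a zinc finger subunit of BAF, had 8.48 for FOXP1 at E15.5 in exon 4 of 4, in a peak of 1743 bp, and 3.39 for TCF7L2 at E18.5. Tcf7l2 itself had 3.39 for TCF7L2 at E18.5 in exon 5 of 13. No coding summit over 5000 bp from a TSS was found in Arid1b, Foxp1 or Tcf4. These 6 genes held 9 summits, 6.36 times their share of bases, 6 of them at 1 locus of Tbr1 seen in 5 lists.

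Coding summits were spread thinly over many genes. Of 11426 eligible genes, those with CDS over 5000 bp from a TSS on chromosomes 1 to 19, 731 (6.40%) had a coding summit in some list. By list this was 2.82% for ARID1B at E15.5, 2.91% for FOXP1 and 1.53% for TCF7L2, then 2.33%, 0.945% and 2.98% at E18.5. With 4 genes outside the eligible set, 735 genes were named in all, of which 640 had 1 locus, 23 had 3 or more loci, and 42 had a summit in every list. Long genes had more. Genes with a summit had a median of 1480 eligible coding bases against 775 over all eligible genes. When eligible genes were placed in 4 equal groups by these bases, 1.50%, 4.32%, 6.58% and 13.2% had a summit from the shortest to the longest. Counts for gene groups are therefore given with the share of coding bases. Summits were counted in every list, so 1 place seen in 6 lists adds 6 summits to its group. Multiples of the share of bases are thus multiples of summits and not of separate places.

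Genes of cortical transcription factors carried coding summits more often than eligible genes at large. Of 38 eligible, 20 (52.6%) had one, against 6.40% of all eligible genes, and they held 67 summits, 3.93% of the total against 0.618% of coding bases. The runs in Cux1, Cux2 and Foxp2 described below made up part of this. Without them 17 of 35 genes and 39 summits were left, 4.01 times the share of bases. Sox5 (chromosome 6, exon 2 of 15) had 6.41 and 7.01 for ARID1B and 4.10 and 3.50 for TCF7L2 at E15.5 and E18.5, and a FOXP1 peak of 5.95 at E15.5 whose summit was not coding. Zfhx2, which encodes a zinc finger homeobox protein, had 4.37 and 5.05 for ARID1B at E15.5 and E18.5, 3.79 and 3.72 for TCF7L2, 5.32 for FOXP1 at E15.5, and no FOXP1 peak at E18.5.

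Synaptic genes had summits in 15 of 46 (32.6%), with 42 summits at 3.42 times their share of bases. Shank3, a scaffold of excitatory synapses, had 3.75, 5.06 and 4.31 for ARID1B, FOXP1 and TCF7L2 at E15.5 in its exon 21 of 22 (2257 bp), and 4.35 and 4.16 for ARID1B and TCF7L2 at E18.5. Grm5, a metabotropic glutamate receptor, had 4.37, 5.19 and 3.06 at E15.5 and 4.77 and 3.94 for ARID1B and TCF7L2 at E18.5, where FOXP1 had no peak. Rims1, which organizes the presynaptic release site, had summits in 5 lists between 2.95 and 4.68, and lay 100656 bp from a TSS. Slitrk5, of a family of synaptic adhesion proteins, had 5 summits between 2.85 and 3.79.

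Wnt pathway genes had summits in 8 of 46 (17.4%), 32 in all, at 3.61 times their share of bases. Lgr6, a receptor for R-spondins, had 1 in each list, from 3.57 to 5.41, in its last exon of 1253 bp. Bcl9l, a cofactor of beta-catenin, had summits in its last exon in 5 lists, from 3.23 to 4.71. Wnt7b, a Wnt ligand, had 4 between 2.95 and 3.50, and a FOXP1 peak of 3.54 at E15.5 without a coding summit. Apc2, a regulator of beta-catenin, held 6 loci, 5 of its 7 summits coming from TCF7L2 at E18.5.

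The ASD-associated genes used by the study had 88 eligible members, of which 17 (19.3%) held 60 summits, 2.30 times their share of bases, or 2.08 times with the genes of the runs left out. Rai1, a chromatin regulator, had 5.79 and 6.17 for ARID1B at E15.5 and E18.5, 4.10 and 4.27 for TCF7L2, and 3.92 for FOXP1 at E15.5, in a coding exon of 5511 bp. Ppp1r9b, which encodes the spine protein spinophilin, had 4 coding summits between 3.75 and 4.82, and peaks of the other 2 lists overlapped its locus. Ankrd11 reached 10.6 and 10.8 for ARID1B and 6.83 and 5.56 for FOXP1, but a RefSeq TSS lay 1815 bp away.

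C2H2 zinc finger genes had summits in 21 of 286 (7.34%), at 0.986 times their share. Besides Zfp771 they held Zfp697, whose last coding exon of 1466 bp carried summits of all 6 lists from 3.57 to 5.95. Genes of giant cytoskeletal and matrix proteins had 12 of 53 with a summit at 0.623 times, with Sptbn4, a spectrin of the axon initial segment, in 4 lists at its exon of 934 bp (3.27 to 4.68). Axon guidance genes had 12 of 58 (1.41 times) and other chromatin regulators 8 of 58 (1.49 times). Voltage-gated channel genes had 4 of 32 (1.24 times), among them Scn8a with 3.65 to 5.35 in 5 lists and Cacnb1 with 3.13 to 4.38 in 4. Notch pathway genes had 5 of 15 (33.3%) with 7 summits at 1.88 times, and BAF subunit genes 4 of 19 (21.1%) with 8 at 1.65 times, of which Smarca2, an ATPase of the complex, held 4 at 1 locus (3.28 to 5.33). None was found in 34 eligible clustered protocadherin genes, with a median of 224 eligible coding bases. None was found either in 10 genes of endothelial and erythroid cells, which could be present in dissected cortex. These 2 groups held 0.0848% and 0.156% of eligible coding bases. With a summit in 6.40% of all eligible genes, absence from groups of this size says little.

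Coding summits that overlapped no peak of another list were low for ARID1B and TCF7L2. They numbered 39 (11.1%) and 26 (8.90%) for ARID1B at E15.5 and E18.5, 76 (20.9%) and 8 (6.84%) for FOXP1, and 6 (3.11%) and 116 (29.5%) for TCF7L2. The shares among intronic summits were 16.3% and 12.3% for ARID1B, 14.7% and 7.89% for FOXP1, and 1.25% and 14.1% for TCF7L2. For ARID1B the highest were Lyrm1 (3.84) and Numb (3.57), the latter a Notch inhibitor, at E15.5, and Efl1 (4.35), a factor of ribosome assembly, and Homer2 (4.07), a postsynaptic scaffold, at E18.5. For TCF7L2 they were Plch2 (3.47), a phospholipase C, and Sp7 (3.27), a factor of bone cells, at E15.5, and Trim62 (4.16) and Apc2 (4.05) at E18.5. FOXP1 differed, with Cux1 (11.1 and 9.11) at E15.5 and Foxp2 (32.3 and 24.7) at E18.5.

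Sharing between stages followed the size of the other list. A peak of the same TR at E18.5 overlapped 69.4% of the ARID1B coding summits of E15.5 (64.4 to 74.0). The share was 25.5% for FOXP1 (21.3 to 30.3) and was 90.2% for TCF7L2 (85.1 to 93.6). In the other direction the shares were 82.2%, 90.6% and 41.7%. Intronic summits had 75.5%, 17.3% and 91.5%, then 83.0%, 90.7% and 41.3%. FOXP1 had 63281 peaks in its E15.5 list and 24526 in its E18.5 list, and TCF7L2 had 32579 and 52595, so the low shares belong to the longer list of each pair.

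The run in Foxp2 was the tallest set of coding summits in the data, and belonged to FOXP1 at E18.5. Of the 15 FOXP1 peaks in the gene at that stage, 14 had coding summits, in 14 of the 18 coding segments that its transcripts make together. Their fold enrichment ran from 11.7 to 32.3, with a median of 22.0, and 7 lay over 5000 bp from a TSS. Segments 8 (32.3), 17 (24.7) and 18 (22.8) were the 3 highest of these, followed by segments 15 (19.4), 9 (17.0), 2 (15.6) and 16 (11.7). In the other 5 lists the gene had 6 to 29 peaks, of which 1 had a coding summit, ARID1B at E18.5 in segment 1 (3.65).

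Cux1 showed a like run for FOXP1 at E15.5. Coding summits were found in 18 of 34 coding segments, from 4.05 to 11.1 with a median of 6.52, and 13 lay over 5000 bp from a TSS. The FOXP1 list of E15.5 also had 18 intronic summits in the gene. The other lists had 1 coding summit at most, ARID1B in segment 2 (3.04 and 2.81). Cux2 showed a lower run for TCF7L2, with 4 coding summits at E15.5 (3.79 to 5.46) and 6 at E18.5 (2.96 to 5.14), and none in the ARID1B and FOXP1 lists. Segments 3, 4 and 6 were occupied at both stages. Dixdc1, which encodes a DIX-domain protein of the Wnt pathway and was picked out after its values were seen, had 6 FOXP1 coding summits at E18.5 (6.30 to 14.5), 2 of them over 5000 bp from a TSS.

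The peaks of these runs followed the exons in outline. In Foxp2 all 14 peaks began and ended 148 to 162 bp beyond the exon, with a median of 156 bp, although the exons varied from 70 to 214 bp. In Cux1, 15 of the 18 peaks overhung both sides by 129 to 162 bp, with a median of 146.5 bp. In Cux2 the overhang of such peaks was 88 to 152 bp at E15.5 (3 peaks) and 119 to 167 bp at E18.5 (4 peaks). A read of 50 bases that is extended to 200 bp reaches 150 bp beyond its own end. The source of the reads under these peaks was not tested.

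Peaks of this outline, with both ends 80 to 180 bp beyond an exon, coding or not, that holds the summit, made up 124 of the 1709 coding summits (7.26%). Genes with 3 or more in 1 list, counted at any distance from a TSS, were Cux1 (15, FOXP1 at E15.5), Foxp2 (14, FOXP1 at E18.5), Cux2 (5 and 4, TCF7L2 at both stages) and Dixdc1 (3, FOXP1 at E18.5). Leaving out these genes left every coding share inside its interval. Esr1 had 2 peaks of the same outline for TCF7L2 at E15.5 (5.98 and 8.49), its only TCF7L2 peaks at that stage.

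**Figure D5:**
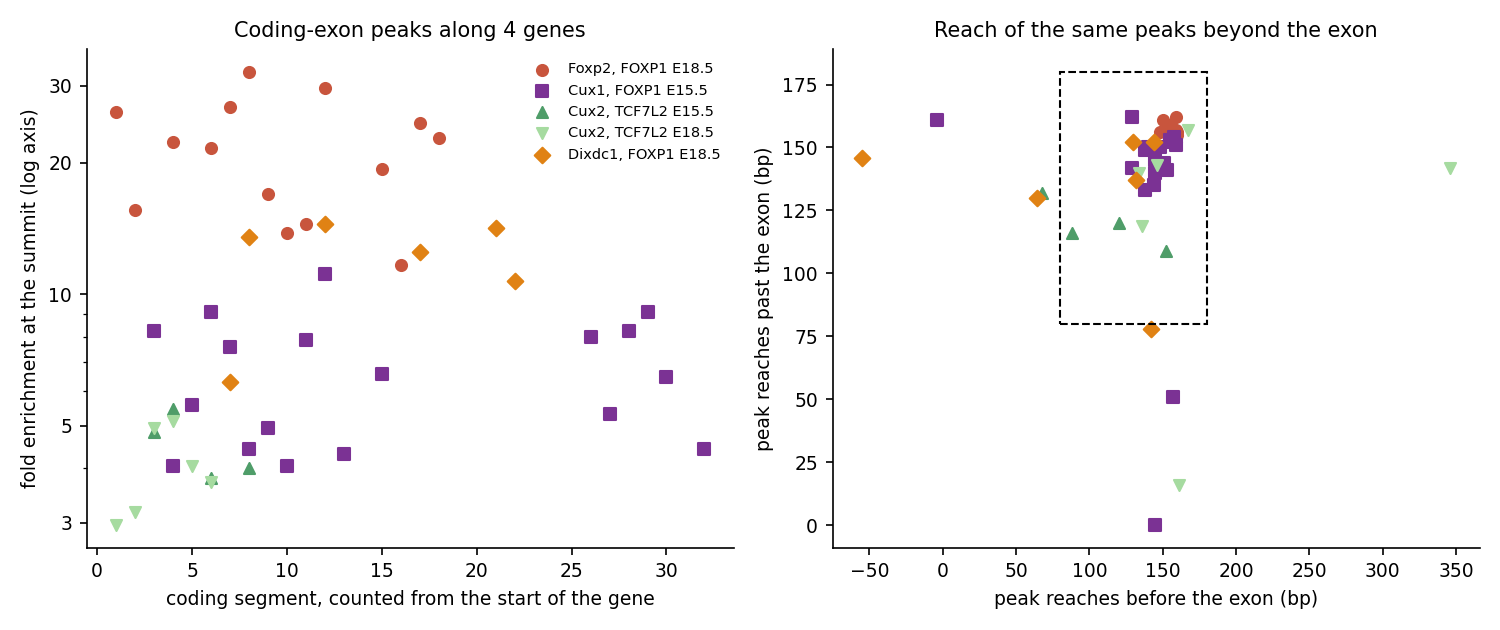
The left panel plots fold enrichment (log axis) of each peak with a coding summit in Foxp2, Cux1, Cux2 and Dixdc1 against the coding segment, counted from the start of the gene, and the right panel plots how far in bp the same peaks reach before and past the exon, with a dashed box at 80 to 180 bp on both sides. The 14 Foxp2 peaks of FOXP1 at E18.5 run from 11.7 to 32.3 and cluster at 148 to 162 bp on both sides of their exons.

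Srcin1, another gene with several occupied coding exons, did not show such an outline. It encodes a regulator of SRC kinase and had 15 coding summits at 5 loci over all 6 lists, the highest at 8.10 (FOXP1, E15.5) in exon 12 of 20, and no peak overhung both sides of its exon by 80 to 180 bp in the 5 lists with more than 1 summit. Bcl9l, Gpr179 and Sptbn4 had 7 summits at 3 loci each. Dnah8, a dynein heavy chain of cilia, had 4 at 4 loci, up to 3.79.

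Motif letters were searched on both strands of the 200 bases around each coding summit. The E-box letters CATCTG were found at 26.2% of coding summits over all lists, at 32.7% of intronic and 31.7% of intergenic summits, and at 19.1% of the centers of coding exons. ARID1B summits held them most often, at 32.6% (E15.5) and 38.4% (E18.5), against 17.1% to 21.6% in the other 4 lists. The intronic summits of ARID1B also held them most often, at 36.4% and 36.1%, against 27.1% to 30.7%, and both lay within the 95% Wilson intervals of the coding shares (27.9% to 37.6% at E15.5, 33.0% to 44.1% at E18.5). Shares over all lists weigh each list by its number of summits, and ARID1B made up a larger part of the intronic summits. The forkhead letters TGTTTAC were at 0.819% of coding summits, against 3.81% of intronic, 3.90% of intergenic summits and 1.44% of exon centers. The TCF/LEF letters CTTTGAT were at 1.87%, against 3.01%, 3.25% and 3.90%, with ARID1B at E15.5 the exception (3.14% of coding and 2.90% of intronic summits). The RFX letters GTTGCC were at 7.90%, against 9.12%, 9.54% and 8.66%. A match to the CTCF consensus with up to 3 mismatches was at 0.761%, or 13 summits, against 0.970%, 1.24% and 0.0403%. For ARID1B at both stages and TCF7L2 at E15.5 the coding share was above the intronic one, with 2 summits each. For TCF7L2 at E15.5 it was 1.04% (0.285 to 3.70), against 1.06% at intergenic summits. These shares count letters and are not binding sites. Coding windows were also higher in G+C than intronic ones, and the part of composition in these shares was not tested.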

How the data were processed

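Libraries of SE50 reads were sequenced from ChIP and input chromatin of the cortex. Per the study's methods and the submitters' processing notes, the authors aligned reads to GRCm38 with BWA 0.7.15, filtered with SAMtools at a mapping quality of 30, and ran MACS2 2.2.7 for narrow peaks on merged replicates at a q-value of 0.01, without model or local background, with reads extended to 200 bp. Extension and the constant background set the width of peaks and let fold enrichment carry local differences in read density. The deposited columns used here are fold enrichment, a ratio to background, and the authors' −log10 of the p-value and the q-value. The deposited score was not used. The authors' notes also name deepTools 3.4.3. The lists are deposited with the first replicate of each TR and stage and were treated as merged.

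Summits were placed on GENCODE vM21 (the study names another release) in Python 3.11.15 with pandas 2.3.3, numpy 2.4.6, scipy 1.17.1 and pysam 0.24.0, and figures were drawn with matplotlib 3.10.9. Coordinates count from 1. The reference transcript of a gene was the APPRIS principal one, else the CCDS one, else the longest CDS. Eligible bases are those of chromosomes 1 to 19 over 5000 bp from any TSS. Loci are unions of peaks that overlap by 1 base. Depth was solved from fold enrichment and p-value under a Poisson model with an input of constant level, and covers the smaller library only. The scripts were tested on simulated data. Shares have 95% Wilson intervals.

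The peaks and gene lists were chosen with earlier results of these data known, so counts for lists are descriptions. Genes were named by a rule: the 3 highest coding summits of each list, the 10 loci seen in the most lists with the highest minimum, the 8 genes with the most occupied coding exons, all coding summits in the genes of the study's TRs, up to 4 loci per gene list seen in at least 4 lists, and the 2 highest summits of each list that overlap no other list. Chia1, Nhsl1, Thsd7a and Dixdc1 were added after their values were seen. Alternatives changed the distance limit, the transcripts, the peak threshold, the definition of a coding peak, the overlap and the motif window.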

Additional observations from a re-analysis of the deposited data

Results flagged for a closer look

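Peaks on the X chromosome entered none of the comparisons. Coding summits over 5000 bp from a TSS were also found there, with no control list to set them against. ARID1B at E18.5 had the most, 4, in Bcor (3.51), a corepressor of BCL6, Cd40lg (3.37), the ligand of CD40, Gucy2f (3.37), a guanylyl cyclase of photoreceptors, and Hdx (3.51), a homeobox gene. ARID1B at E15.5 had 2, in Cd40lg (3.66) and Gucy2f (3.30), and FOXP1 at E15.5 had a coding summit in Nhsl2 (2.91). The other 3 lists had 0. Fold enrichments are in parentheses.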

How the results depend on the processing

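No paired analysis was possible because peaks were called on merged replicates, and no replicate could be left out for the same reason. Of 121 comparisons of a result with an alternative, 57 stayed within the limits set and 64 moved. The limits were the Wilson interval for a share and 1.5 times for a count. No result moved with CDS of CCDS transcripts only, an overlap of at least 50% of the shorter peak, summits within 200 bp, Cux1, Cux2, Foxp2 and Dixdc1 left out, or RefSeq TSSs added to the distance limit. The last 2, and the p-value limit with the 4 genes left out, were chosen after seeing the data. Lists are given below in the order ARID1B, FOXP1 and TCF7L2 at E15.5, then the same at E18.5. Over 2000 bp from a TSS, coding summits numbered 559, 660, 381, 484, 197 and 753, with shares of 1.17%, 1.63%, 2.77%, 1.08%, 2.09% and 2.68%, and loci with summits of all 3 TRs numbered 155 at E15.5 and 98 at E18.5. Over 10000 bp they numbered 206, 202, 98, 187, 57 and 195, with 0.631%, 0.779%, 1.23%, 0.611%, 0.983% and 1.19%, and 41 and 24 loci. With −log10 p of at least 15 they numbered 95, 114, 32, 88, 28 and 59, with 11 and 10 loci, and 3 shares moved, ARID1B to 0.664% and 0.680% and FOXP1 at E18.5 to 2.72%. With the 4 genes left out as well they numbered 95, 104, 31, 88, 19 and 57, and the shares that moved were 0.664% and 0.680% for ARID1B, 1.86% for FOXP1 at E18.5 and 1.56% for TCF7L2 at E15.5. With at least 50% of the peak's bases in CDS, the counts that moved were 199, 230 and 174 (ARID1B and FOXP1 at E15.5, ARID1B at E18.5), the shares were 0.490%, 0.689%, 1.28%, 0.457%, 1.03% and 1.21%, and 33 loci had all 3 TRs at E18.5. With windows of 100 bp the motif shares were 15.4% (E-box), 3.98% (RFX), 0.819% (TCF/LEF), 0.293% (CTCF) and 0.234% (forkhead), as shorter windows hold fewer letters. In the order of lists by share, FOXP1 at E18.5 came first with −log10 p of at least 15, and TCF7L2 at E18.5 came first with RefSeq TSSs. The cause of the other moves was not tested. FOXP1 at E18.5 had the fewest reads, and its lowest called summit had a fold enrichment of 3.21.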
